A study of Homo sapiens with 18 samples.

Results

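MYC peaks were described at 6 loci of the transforming growth factor beta (TGF-beta) pathway: TGFB2, TGFBR2, ITGB5, SMAD2, SMAD3 and SMAD7. A peak belonged to a locus when its summit, the position of highest signal, lay in a fixed hg19 window of 60 to 152 kb around the gene. The windows were chr1:218500000-218640000 for TGFB2, chr3:30630000-30740000 for TGFBR2, chr3:124475000-124625000 for ITGB5, chr18:45355000-45480000 for SMAD2, chr15:67338000-67490000 for SMAD3 and chr18:46440000-46500000 for SMAD7. They held 172 of 150870 peaks. After peaks of all libraries that overlapped by at least 1 bp had been merged, they held 56 of 43222 regions. The loci were chosen by their peak calls: it was known that some of their distal peaks were in shSCR lists and in no shG9a list. Every knockdown-against-scramble value below is therefore a description without a test.

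The study asked by ChIP-seq how knockdown of G9a, a histone methyltransferase linked to gene silencing, changes MYC binding. All cells were MCF10A.PM, a derivative of the immortalised breast epithelial line MCF10A that carries ectopic MYC (pBABE-hygro-MYC) and the mutant PI3K allele PI3KH1047R. The knockdown groups carried a pLKO-tetON-puro vector with the hairpin shG9a 1 or shG9a 4 (written shG9a_1 and shG9a_4 here), and the control group carried the same vector with the scramble hairpin shSCR. Every group, shSCR included, had ectopic MYC, PI3KH1047R and 72 h of doxycycline at 2 µg/mL, and each had 3 biological replicates precipitated with the homemade MYC antibody N262. Whether a line was 1 clone or a pool is not given in the sources used here. Because MYC was ectopic in every group, the binding described is that of cells with added MYC. Peak lists hold no expression, so neither the cell line label nor the loss of G9a was checked. The 9 inputs were not analysed here.

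TGF-beta ligands bind the type II receptor kinase TGFBR2, which activates a type I receptor. The receptor complex then phosphorylates SMAD2 and SMAD3, which enter the nucleus with SMAD4 and regulate genes. SMAD7 is induced by the pathway and inhibits it at the receptor, and the integrin subunit ITGB5, paired with the alpha v subunit, can activate latent TGF-beta. In breast epithelium the pathway restrains growth and can drive epithelial-mesenchymal transition. MYC binds DNA with its partner MAX, with a preference for the E-box CACGTG.

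Promoter sequences are shown for 5 of the genes: the 4 with a match to the motifs searched, each at the start that holds it, and SMAD2, which had the strongest promoter region in shSCR cells. They come from RefSeq (GRCh38.p14) and run from 250 bases before to 50 after a listed start, 5′ to 3′ on the gene's strand. Capitals mark CACGTG and the related CACGCG or its reverse complement CGCGTG, searched on both strands. The peaks are in hg19, a different build, so the peak regions' own sequence is not printed and no peak was placed on these letters.
TGFB2 (chr1:218345086-218345385, plus strand): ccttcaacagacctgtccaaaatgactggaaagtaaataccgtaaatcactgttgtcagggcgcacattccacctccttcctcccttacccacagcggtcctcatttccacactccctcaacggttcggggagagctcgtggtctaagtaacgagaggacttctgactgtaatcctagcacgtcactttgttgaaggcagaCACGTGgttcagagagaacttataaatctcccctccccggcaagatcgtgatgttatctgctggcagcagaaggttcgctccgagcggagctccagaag
TGFBR2 (chr3:30606351-30606650, plus strand): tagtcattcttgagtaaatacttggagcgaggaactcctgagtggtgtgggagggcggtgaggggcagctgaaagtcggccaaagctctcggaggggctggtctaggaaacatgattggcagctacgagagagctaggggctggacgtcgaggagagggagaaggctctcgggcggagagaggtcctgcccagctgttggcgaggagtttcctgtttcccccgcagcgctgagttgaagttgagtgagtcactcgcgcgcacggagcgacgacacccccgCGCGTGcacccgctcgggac
ITGB5 (chr3:124887635-124887934, minus strand): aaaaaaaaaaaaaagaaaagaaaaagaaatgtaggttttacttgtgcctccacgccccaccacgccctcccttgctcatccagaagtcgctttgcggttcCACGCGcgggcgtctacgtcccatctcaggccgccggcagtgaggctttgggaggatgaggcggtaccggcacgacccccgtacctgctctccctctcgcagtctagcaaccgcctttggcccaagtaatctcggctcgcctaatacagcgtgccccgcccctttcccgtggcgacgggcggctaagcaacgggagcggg
SMAD2 (chr18:47930823-47931122, minus strand): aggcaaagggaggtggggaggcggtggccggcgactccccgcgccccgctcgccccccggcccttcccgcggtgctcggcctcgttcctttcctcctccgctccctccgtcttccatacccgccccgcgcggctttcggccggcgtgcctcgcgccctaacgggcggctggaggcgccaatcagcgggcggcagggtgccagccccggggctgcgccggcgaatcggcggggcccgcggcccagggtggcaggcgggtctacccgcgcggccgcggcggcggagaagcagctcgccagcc
SMAD3 (chr15:67065352-67065651, plus strand): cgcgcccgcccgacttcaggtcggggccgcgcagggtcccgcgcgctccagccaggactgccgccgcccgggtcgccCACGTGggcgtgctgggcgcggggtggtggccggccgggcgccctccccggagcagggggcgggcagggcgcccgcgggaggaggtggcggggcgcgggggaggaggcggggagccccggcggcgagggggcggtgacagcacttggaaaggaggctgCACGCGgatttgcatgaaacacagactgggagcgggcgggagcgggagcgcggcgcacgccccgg
The TGFB2 sequence held 1 CACGTG, and the SMAD3 sequence held 1 CACGTG and 1 CACGCG. TGFBR2 and ITGB5 each held 1 match to the related motif, in each case at the second start listed. The other TGFBR2 start and the other 2 ITGB5 starts held none. No match was found at either of the 2 SMAD2 starts, at the 3 SMAD7 starts or at the other 4 SMAD3 starts. Over 35116 RefSeq promoters of the same length, 7.26% held CACGTG, 11.4% held CACGCG or CGCGTG, and 17.4% held any of them. A match is a run of letters, not a measured binding site.

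Across the series the lists were unequal in length. Apart from shG9a_1 replicate 1, which listed 113 peaks, shG9a libraries listed 11168 to 17454 peaks, against 20118 to 34738 in shSCR libraries. Relative depth was taken as a library's lowest background, recovered from fold and p-value, over its shortest peak. It was 0.839 to 2.65 times the shSCR mean in those shG9a libraries and 0.926 to 1.04 times in shSCR libraries. For shG9a_1 replicate 1 it was 2.36 times, but through a shortest peak of 51 bp, against 144 to 157 bp in shSCR. The lowest background of that library, 0.361, was below the 0.408 to 0.488 of shSCR libraries, so whether it was shallow is not known. It had no peak in any of the 6 windows.

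The 6 windows together held fewer peaks in knockdown libraries. They held 0, 12 and 14 peaks in shG9a_1 replicates 1 to 3, and 10, 19 and 16 in shG9a_4 replicates 1 to 3, against 37, 41 and 23 in shSCR replicates 1 to 3. No shG9a library reached the lowest shSCR library. The mean was 11.8 ± 6.59 peaks in shG9a (SD, n = 6), or 14.2 ± 3.49 without shG9a_1 replicate 1 (n = 5), against 33.7 ± 9.45 in shSCR (n = 3). That is 35.1% of the shSCR mean, or 42.2% without that library. Over all peaks the same figures were 39.1% and 46.8%. Per 1000 listed peaks the windows held 0.895 to 1.24 in the 5 other shG9a libraries and 1.14 to 1.24 in shSCR libraries. Of these shG9a libraries, shG9a_4 replicate 3, at 1.24, lay within the shSCR range and the other 4 lay below it. In means of small counts the fall was uneven over the loci. Without shG9a_1 replicate 1, the shG9a mean was 21.4% of the shSCR mean at TGFBR2, 25.3% at ITGB5, 38.8% at TGFB2, 44.5% at SMAD3, 70.9% at SMAD7 and 73.3% at SMAD2. At SMAD3 those shG9a libraries held 4, 4, 4, 5 and 6 peaks, against 11, 17 and 3 in shSCR. Single libraries of the groups also overlapped at TGFB2, SMAD2 and SMAD7, but not at TGFBR2 and ITGB5. The list lengths of the groups did not overlap either, at most 17454 peaks in shG9a and at least 20118 in shSCR. How many other windows separate in this way was not counted, so the separation does not set these loci apart. The difference in mean window peaks, shG9a minus shSCR, was -21.8, or -19.5 without shG9a_1 replicate 1. Without that library and with every list cut to 11168 peaks it was -3.13. The part of list length in the fall was not tested.

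Fewer peaks were listed in shG9a libraries both at promoters and at distal regions, though not to the same extent. A region counted as promoter when its best summit lay within 2 kb of the start used for its gene, and as distal otherwise. Only 1 start per gene was used, taken from general knowledge of hg19 to the nearest kb. Distances are good to about 1 kb, and exon or intron was not assigned. Promoter peaks numbered 0, 7 and 10 in shG9a_1 replicates 1 to 3 and 6, 11 and 9 in shG9a_4 replicates 1 to 3, against 13, 12 and 13 in shSCR. Distal peaks numbered 0, 5 and 4 in shG9a_1 and 4, 8 and 7 in shG9a_4, against 24, 29 and 10 in shSCR. The promoter count was nearly level over the shSCR replicates, while the distal count ranged widely there. Over all peaks the shG9a mean was 39.1% of the shSCR mean. All peaks were not split into promoter and distal, so neither fall is set apart from the whole lists.

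Regions in the lists of all 3 shSCR libraries are termed reproducible. They are termed lost if absent from all 6 shG9a lists, kept if present in at least 5 of them, and partial in between. Of the 56 regions, 15 were reproducible: 8 of 15 promoter regions and 7 of 41 distal regions. Of those 15, 3 were lost, 5 were kept and 7 were partial. Over all 14209 reproducible regions, 9.49% were lost and 36.9% were kept. All 3 lost regions were distal and all 5 kept regions were at promoters, counts that the choice of loci used and from which nothing is read. No region was gained, that is, called by no shSCR library and by at least 2 libraries of each hairpin. Of the 56 regions, 31, the lost ones among them, were called in shSCR libraries alone (55.4%, against 49.4% of all 43222 regions), and 4 in shG9a libraries alone (7.14%, against 4.55% of all). The counts lean on shSCR replicate 3: without it 25 regions were reproducible and 7 were lost, all distal. Leaving it out loosens the rule to 2 shSCR libraries for every region of the series. The share lost over all regions is not given for that setting, so nothing is read from the rise. Without shG9a_4 replicate 2, shSCR replicate 1 or shSCR replicate 2, 1 promoter region (of TGFBR2, ITGB5 and SMAD7 in that order) counted as lost. Each lay 818, 506 and 662 bp, summit to summit, from another promoter region of its gene that shG9a libraries listed. So none of these promoters was without shG9a peaks. With a −log10 q of at least 5 only 2 regions were kept, and with a fold of at least 5 only 3 were. The shares kept over all regions at these limits are not given here either. The 3 lost regions stayed lost whichever library was left out, which their definition fixes in advance. They were also lost when shG9a_1 replicate 1 was left out and every other list was cut to its top 11168 peaks by q-value. Cutting can add no shG9a call, so only their shSCR calls could change there. Under that setting 1.23% of all reproducible regions were lost. The loci were chosen for such peaks, so nothing is read from that share.

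**Figure D1:**
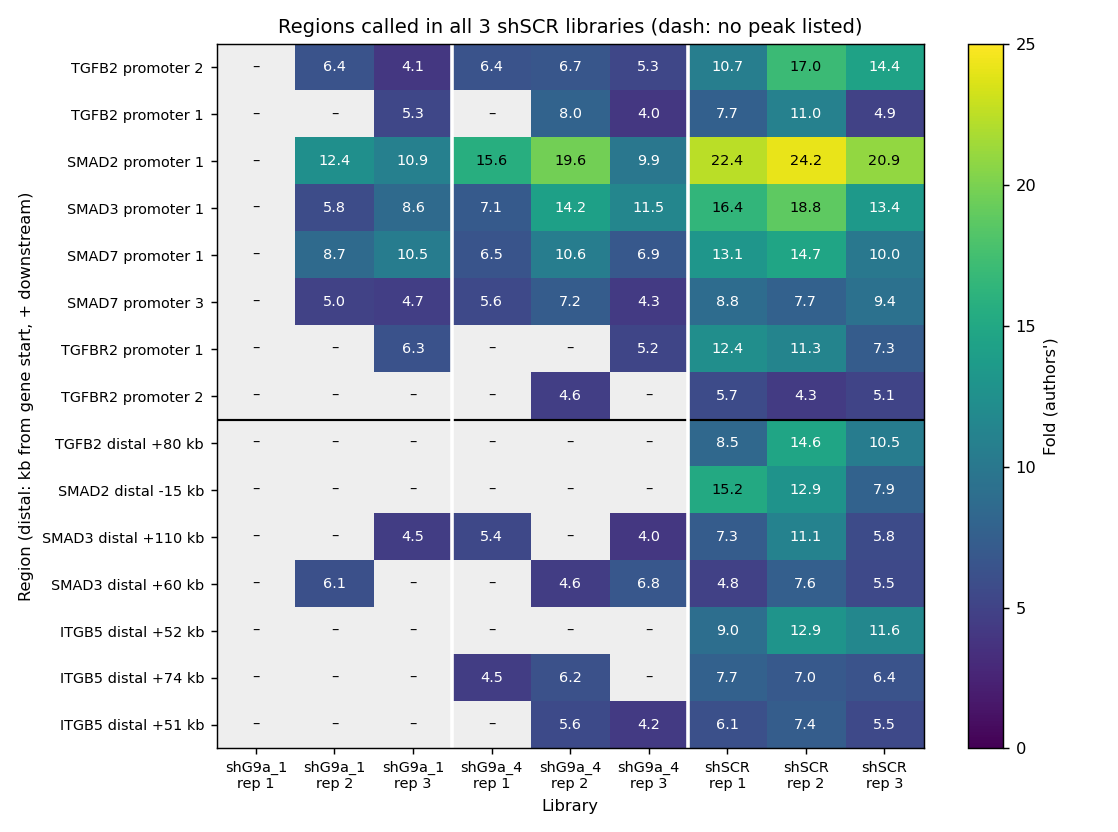
Calls of the 15 reproducible regions (rows) in the 9 libraries (columns, shG9a_1, shG9a_4, then shSCR), shaded by the authors' fold. The 3 lost regions are blank in all 6 shG9a columns, and shG9a_1 replicate 1 is blank in every row.

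The ligand gene TGFB2 had a pair of neighbouring promoter regions and 1 lost distal region. The stronger promoter region (chr1:218519062-218519637) was kept. Its fold, the authors' enrichment over background (reads piled up at the summit over those expected there, with 1 added to both), was 6.44 and 4.09 in shG9a_1 replicates 2 and 3 and 6.36, 6.68 and 5.28 in shG9a_4 replicates 1 to 3, against 10.7, 17.0 and 14.4 in shSCR replicates 1 to 3. All 5 shG9a values lay below all 3 shSCR values, with means of 5.77 ± 1.08 (SD, n = 5) and 14.0 ± 3.15 (n = 3). The share of all regions whose folds separate in this way was not counted. Such a separation in fold, here or at the regions below, therefore does not set a region apart. The weaker promoter region (chr1:218518488-218518976) was partial: its fold was 5.33 in shG9a_1 replicate 3 and 7.95 and 4.03 in shG9a_4 replicates 2 and 3, against 7.71, 11.0 and 4.94 in shSCR. Here the groups overlapped.

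The lost TGFB2 region lay about 80 kb downstream of the gene's start (chr1:218599057-218599368), a distance shorter than the 99.3 kb the gene spans in GRCh38. No shG9a library listed it. Its fold was 8.46, 14.6 and 10.5 in shSCR replicates 1 to 3, and its summits there lay within 41 bp of each other. It ranked at the percentiles 85.0, 91.3 and 79.6 of those lists by q-value, close to the kept promoter region's shSCR average of 90.7. Another distal TGFB2 region, about 35 kb downstream and named after its values were seen, was listed by shG9a_1 replicates 2 and 3 at folds of 5.03 and 5.33 and by no shG9a_4 library, against folds of 8.49 and 7.21 in shSCR replicates 1 and 2.

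The receptor gene TGFBR2 had 2 promoter regions, with summits 818 bp apart, and both were partial. The first was listed by 2 shG9a libraries and the second by 1 other. Its first promoter region (chr3:30647720-30648388) had folds of 6.34 in shG9a_1 replicate 3 and 5.21 in shG9a_4 replicate 3, against 12.4, 11.3 and 7.32 in shSCR. Both shG9a values lay below the shSCR ones, a comparison that leaves out the shG9a libraries without a call. Its second promoter region (chr3:30648663-30649015) was listed at 4.63 in shG9a_4 replicate 2 alone among shG9a libraries, against 5.72, 4.34 and 5.09 in shSCR, so it was weak in every list. Over the whole window shG9a_1 replicates 1 to 3 held 0, 0 and 1 peaks and shG9a_4 replicates held 0, 3 and 1, against 5, 4 and 5 in shSCR. None of the 8 distal regions of TGFBR2 was reproducible.

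At ITGB5 no single promoter region was reproducible, and the reproducible regions were distal. The 3 promoter regions lay close together, with summits 256 and 506 bp apart, and counted separately because their peaks did not overlap. Every shSCR library listed at least 1 of them, so the promoter as a whole had a peak in each. The middle promoter region (chr3:124605972-124606389) was listed at 4.69 in shG9a_1 replicate 2 and 7.43 and 5.42 in shG9a_4 replicates 2 and 3, against 4.29 and 7.71 in shSCR replicates 2 and 3. The groups overlapped. The first (chr3:124606417-124606576) was listed at 5.50 in shSCR replicate 1 alone, and the third (chr3:124605477-124605904) at 11.0 and 5.18 in shSCR replicates 2 and 3 alone.

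The lost ITGB5 region lay about 52 kb downstream of the start (chr3:124553799-124554170), within the 139.5 kb that the gene spans in GRCh38. Its fold was 8.99, 12.9 and 11.6 in shSCR replicates 1 to 3, with summits within 8 bp, and no shG9a library listed it. A partial region lay 589 bp away, summit to summit (chr3:124554267-124554621). It was listed at 5.61 and 4.22 in shG9a_4 replicates 2 and 3 and in no shG9a_1 library, against 6.14, 7.38 and 5.51 in shSCR. So of these close neighbours the stronger in shSCR was missing from all shG9a lists, and the weaker was not. A further partial region about 74 kb downstream (chr3:124531710-124532095) was listed at 4.50 and 6.17 in shG9a_4 replicates 1 and 2, against 7.74, 7.01 and 6.41 in shSCR. No shG9a_1 library listed any of the 3 reproducible ITGB5 regions.

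SMAD2, a receptor-activated SMAD, had the strongest promoter region and a lost region upstream. The promoter region (chr18:45456432-45458059, 1628 bp) was kept, and its best peak had folds of 12.4 and 10.9 in shG9a_1 replicates 2 and 3 and 15.6, 19.6 and 9.87 in shG9a_4, against 22.4, 24.2 and 20.9 in shSCR. The means were 13.7 ± 3.98 (SD, n = 5) and 22.5 ± 1.62 (n = 3), and no values overlapped. In rank it stayed high, at the percentiles 86.2 to 96.3 in those shG9a lists and 96.4 to 97.4 in shSCR lists. A second promoter region (chr18:45456206-45456356) was listed in shG9a_4 replicate 2 alone, at 5.79.

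The lost SMAD2 region lay about 15 kb upstream of the start (chr18:45471885-45472230). Its fold was 15.2, 12.9 and 7.90 in shSCR replicates 1 to 3, with summits within 21 bp, and no shG9a library listed it. Its percentile by q-value was 91.9, 87.5 and 60.1, so its rank in replicate 3 was well below that in the other shSCR replicates.

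SMAD3, the other receptor-activated SMAD, had the most regions, 21, of which 18 were not reproducible. Its main promoter region (chr15:67357332-67358258) was kept, with folds of 5.85 and 8.61 in shG9a_1 replicates 2 and 3 and 7.13, 14.2 and 11.5 in shG9a_4, against 16.4, 18.8 and 13.4 in shSCR. The highest shG9a value lay above the lowest shSCR value. A second promoter region was listed in shSCR replicate 2 alone, at 4.46.

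Both reproducible distal SMAD3 regions were partial. The region about 60 kb downstream (chr15:67417881-67418565) had folds of 6.08 in shG9a_1 replicate 2 and 4.55 and 6.75 in shG9a_4 replicates 2 and 3, against 4.84, 7.61 and 5.51 in shSCR. Where it was listed, its fold did not separate the groups. RefSeq lists SMAD3 starts 33.1, 60.1 and 100.9 kb downstream of the first, so this region may not be distal to every start of the gene. The same holds for regions 32.9 and 102.7 kb downstream, each listed by a single shSCR library. The region about 110 kb downstream (chr15:67468070-67468389) had folds of 4.53 in shG9a_1 replicate 3 and 5.42 and 4.01 in shG9a_4 replicates 1 and 3. In shSCR the folds were 7.30, 11.1 and 5.75, without overlap among the libraries that listed it. A region about 81 kb downstream (chr15:67438598-67438991), named after its values were seen, was listed by 5 shG9a libraries at folds of 4.58 to 6.99 and by shSCR replicates 1 and 2 at 6.41 and 7.29. It failed to count as reproducible because shSCR replicate 3, which held 3 SMAD3 peaks, did not list it.

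SMAD7, the inhibitory SMAD, had promoter regions alone, and both reproducible ones were kept. The stronger (chr18:46478137-46479320), about 2 kb upstream and so at the limit set for a promoter, had folds of 8.69 and 10.5 in shG9a_1 replicates 2 and 3 and 6.49, 10.6 and 6.86 in shG9a_4, against 13.1, 14.7 and 10.0 in shSCR. The groups overlapped. The other (chr18:46476252-46476779) had folds of 4.96 and 4.66 in shG9a_1 and 5.56, 7.23 and 4.26 in shG9a_4, against 8.79, 7.73 and 9.37 in shSCR, without overlap. Of the remaining 2 promoter regions, one (chr18:46475609-46475884) was listed in shG9a_4 replicate 2 alone at 5.62. The other (chr18:46477816-46478119) was listed in shSCR replicates 1 and 3 alone, at 5.74 and 5.55.

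**Figure D2:**
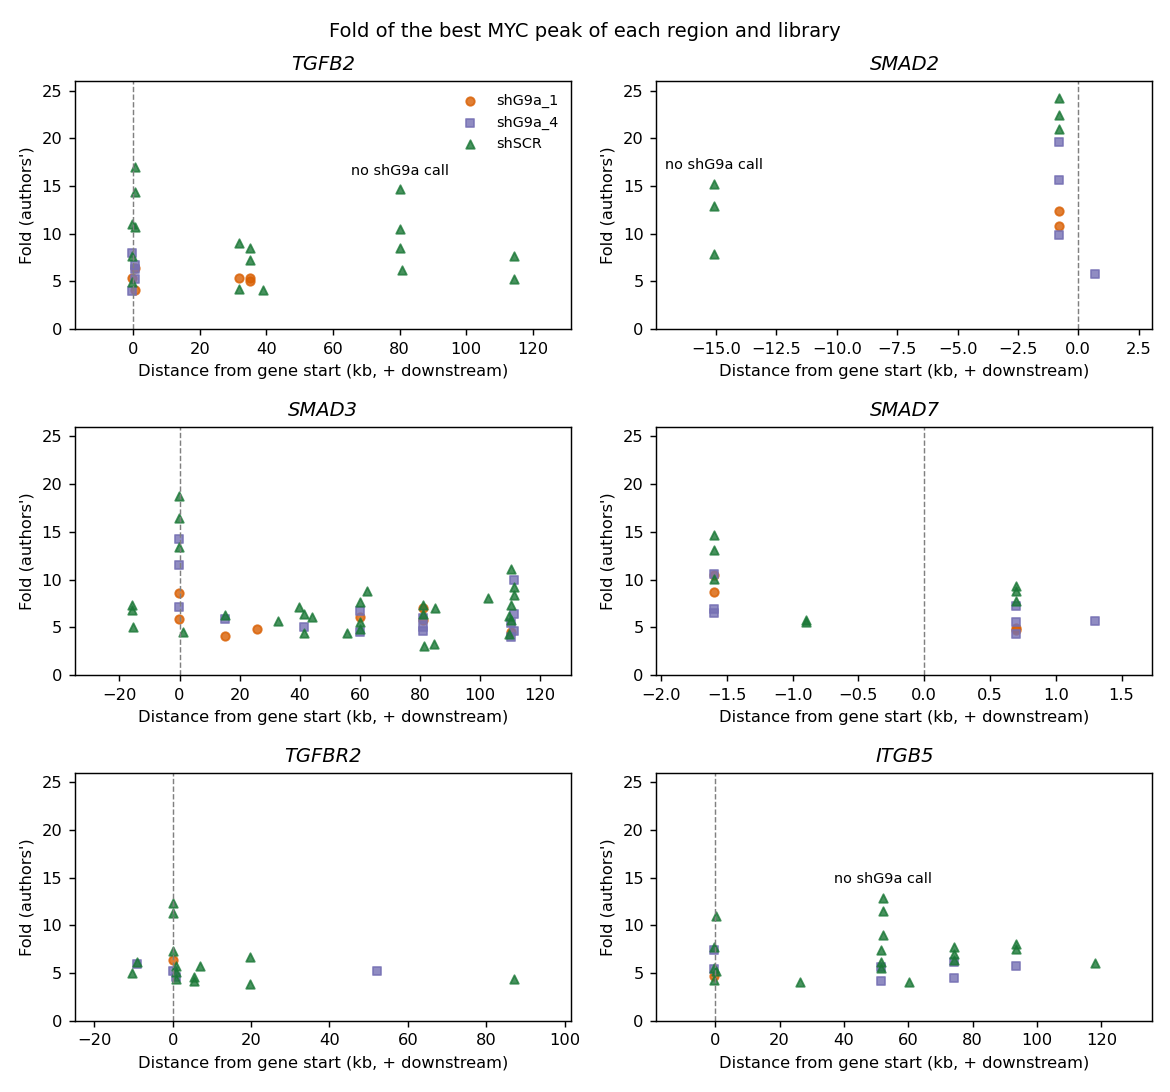
Fold of the best peak of each region and library (vertical axis) against its distance in kb from the gene's start (horizontal axis, start to the nearest kb) at the 6 loci, coloured by group. Distal peaks near 80 kb at TGFB2, 52 kb at ITGB5 and 15 kb upstream at SMAD2 are present in shSCR alone, while the ITGB5 region beside the lost one, at about 51 kb, was also listed by shG9a_4.

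The 5 kept promoter regions were all lower in knockdown libraries on a scale that takes depth into account. On that scale, the pileup recovered from fold and p-value was divided by the library's lowest background. The SMAD2 region averaged 48.1 ± 15.3 in shG9a (SD, n = 5) and 86.3 ± 7.11 in shSCR (n = 3), and the TGFB2 region 29.7 ± 6.16 and 66.1 ± 9.25. SMAD3 averaged 26.2 ± 10.9 in shG9a and 61.1 ± 6.65 in shSCR. The stronger SMAD7 region averaged 27.0 ± 10.6 and 44.9 ± 8.26, and the other 17.6 ± 4.66 and 36.8 ± 7.18, again with shG9a first. All 5 shG9a libraries that listed these regions lay below all 3 shSCR libraries at each one. Over all 5245 regions listed in those 8 libraries, 56.1% showed the same separation. The ratio of the shG9a mean to the shSCR mean was 0.429 to 0.601 at the 5 promoters, with a median of 0.478, and its median over the 5245 regions was 0.559 (quartiles 0.502 and 0.624). The ratio lay below that lower quartile at TGFB2, SMAD3 and the weaker SMAD7 region, and between the quartiles at SMAD2 and the stronger SMAD7 region. The shG9a_4 replicates 1 and 3, whose recovered depths were highest among the 8 libraries at 1.90 and 2.65 times the shSCR mean, also had the lowest library medians on this scale, 22.6 and 22.3. The part of depth in these ratios was not tested.

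**Figure D3:**
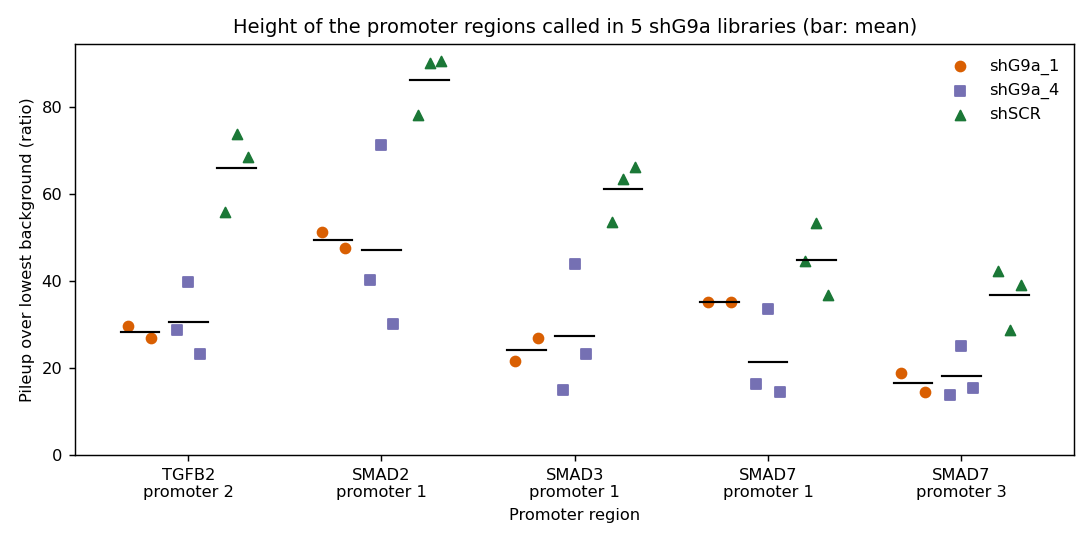
Recovered pileup over lowest background (vertical axis) at the 5 kept promoter regions, 1 point per library, with shG9a_1 and shG9a_4 left of shSCR. At each region the 5 shG9a libraries lie below the 3 shSCR libraries.

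The lost regions have values on the same scale in shSCR lists alone. There they stood at 64.7, 65.6 and 44.1 (TGFB2), 53.6, 53.3 and 27.0 (SMAD2) and 33.5, 41.0 and 39.2 (ITGB5) times the lowest background in replicates 1 to 3. Where the local background is at a library's lowest, the 5 other shG9a libraries list peaks down to 7.54 to 10.8 on this scale, and shG9a_1 replicate 1 down to 19.4. The local background at the lost regions was higher than that, at 1.16 to 5.69 times the lowest in shSCR lists and highest at TGFB2 in shSCR replicate 1. The local background there in shG9a libraries is not listed, so their limit of detection at these sites is not known, and a weaker signal there cannot be told from none.

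**Figure D4:**
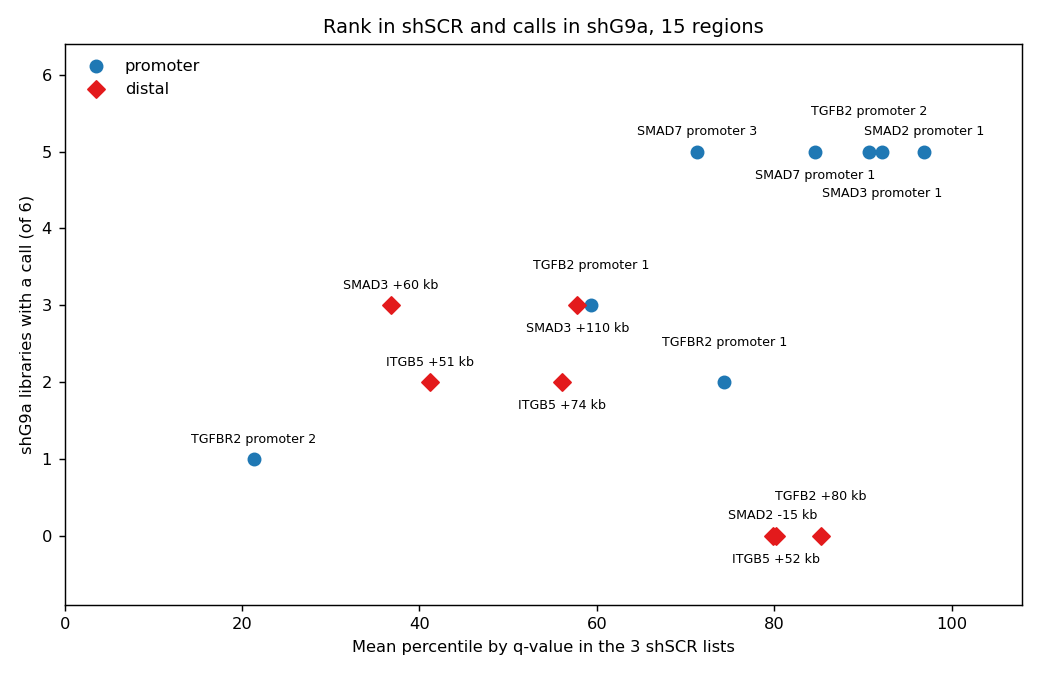
Mean percentile by q-value in the 3 shSCR lists (horizontal axis) against the number of shG9a libraries with a call (vertical axis, of 6) for the 15 reproducible regions, circles at promoters and diamonds at distal regions. The 3 lost regions lie at 79.8 to 85.3, above the 7 partial regions at 21.3 to 74.4.

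By rank, the lost regions were not the weak ones of these loci. Their mean percentile in shSCR was 79.8 to 85.3, against 71.3 to 96.9 for the kept and 21.3 to 74.4 for the partial regions. Over the whole genome lost regions were lower in rank, with a median of 38.5. In the strength deciles that hold these 3 the share lost was 0.563% (8 of 1421) and 0.0704% (1 of 1421). The 8 include the SMAD2 and ITGB5 regions, and the 1 is the TGFB2 region itself. Since the loci were chosen for such peaks, these shares describe the choice. In the shSCR lists alone, median peak widths were 250 to 312 bp at the lost, 354 to 670 bp at the kept and 227 to 440 bp at the partial regions, so the lost ones were narrower than the kept and within the range of the partial.

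More of the reproducible regions were uncalled under shG9a_1 than under shG9a_4. Of the 15 reproducible regions, no shG9a_1 library called 6 (1 promoter, 5 distal), and no shG9a_4 library called 3 (all distal). Over all reproducible regions these shares were 25.3% and 13.5%. The larger count under shG9a_1 includes the library with 113 peaks, and the difference was not tested. Relative height between hairpins was tested with limma on the 5245 regions, on log2 pileup over lowest background centred in each library, with 2 shG9a_1, 3 shG9a_4 and 3 shSCR libraries. This contrast was not used to choose the loci. No region passed an adjusted p of 0.05 (0%), and 330 (6.29%) had an unadjusted p under 0.05. The stronger SMAD7 promoter region differed by 0.47 ± 0.23 (log2, SE, shG9a_1 minus shG9a_4; limma adjusted p = 0.790) and the TGFB2 region by -0.43 ± 0.24 (limma adjusted p = 0.791). The other SMAD7 region differed by -0.43 ± 0.26 (limma adjusted p = 0.827), SMAD3 by -0.39 ± 0.25 (limma adjusted p = 0.842) and SMAD2 by -0.18 ± 0.24 (limma adjusted p = 0.948). With 2 and 3 libraries, these intervals do not show that the hairpins act alike.

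Windows were given as ranges, and the regions nearest their edges were checked once. Of 12 edges, the nearest region outside lay 2.2 kb beyond the upper edge of SMAD7, with a fold of 5.63 in 1 shSCR library and no shG9a call. The nearest inside lay 4.3 kb within the lower edge of SMAD3, with a mean fold of 7.03 in 2 shSCR libraries.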

How the data were processed

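MYC ChIP-seq was measured in 9 libraries, 3 per hairpin; the 9 inputs were not analysed here. The tools named in the submitters' processing notes are MACS2 2.1.0, STAR 2.5.2a, Picard 2.7.1 and SAMtools 1.3, and the build is hg19 (GRCh37). For the caller, no settings are given in the sources used here. The authors deposited 1 peak list per library, not pooled, with a score for each peak that was not used here. In these lists the authors' fold is the ratio of summit pileup to expected background. The −log10 p-value and the −log10 q-value in the authors' lists refer to the same summit. All 3 measures are the authors' own and served to describe, rank or filter peaks.

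Of 151062 peaks, 150870 on chromosomes 1 to 22 and X were used and merged into regions. Read depth is not listed. Whole-number pileups were recovered from fold and p-value, within 0.001 on the −log10 p scale, for all peaks. The lowest background shared by at least 1% of a library's peaks, divided by the width of its shortest peak, gave its relative depth. That assumes 1 genome size setting throughout and a shortest peak that means the same in every list. The recovery of pileups and the counting of states were tested on simulated data. Heights between the hairpins were tested with limma 3.58.1 in R 4.3.3 with Benjamini-Hochberg adjustment over all 5245 regions called in 8 libraries. P-values measure only the spread between these libraries.

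The loci, the lists and the region rules were chosen with earlier results of these data known. Every promoter and lost region was named, and up to 3 of the other reproducible distal regions of a window by shSCR rank. The alternatives tried were summits within 250 bp, equal list lengths, higher limits on q-value and fold, other promoter distances, other scalings, a block on replicate number, and each library left out in turn. Gene starts came from general knowledge of hg19 to the nearest kb, so a planned count over other pathway genes was not run. Gene spans and promoters came from RefSeq, in which all 6 genes matched.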

Additional observations from a re-analysis of the deposited data

How the results depend on the processing

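Of 95 alternatives to the counts and the hairpin test, 85 kept their value within 1.5 times or their side of the threshold, and all 65 alternatives for single regions kept theirs. This tally does not measure robustness, because some alternatives could hardly move a count. Leaving out an shG9a library cannot undo a lost region. Leaving out shG9a_1 replicate 1, which had no peak in the windows, cannot remove a call there. With each list cut to 11168 peaks and shG9a_1 replicate 1 left out, 8 regions of the windows were reproducible and the difference in peaks, shG9a minus shSCR, was -3.13. The same 3 regions were lost there, though cutting could add no shG9a call and so tested only their shSCR calls. Of 6445 regions in all, 1.23% were lost. Since the loci were chosen for such peaks, this share is no yardstick for them. With a −log10 q of at least 5, 2 regions were kept, and with a fold of at least 5, 3 were. Leaving out 1 library in turn gave 15 to 25 reproducible, 3 to 7 lost, 5 to 6 kept, 3 to 7 lost distal and 0 to 1 lost promoter regions, and a difference of -27.2 to -18.2 peaks. The highest reproducible and lost counts came without shSCR replicate 3, where the rule asks for 2 shSCR libraries. Shares lost or kept over all regions are not given for the q-value, fold and left-out-library settings. A lost promoter region appeared without shSCR replicate 1 (ITGB5), shSCR replicate 2 (SMAD7) or shG9a_4 replicate 2 (TGFBR2). In each case shG9a libraries still listed another promoter region of the gene. The cause of these changes was not tested. The hairpin test called 0 regions under every alternative, with 267 to 398 at an unadjusted p under 0.05 (356 and 398 without shG9a_1 replicate 2 or 3, where the lone shG9a_1 library is assumed to vary like the other groups); the 5 promoters' adjusted p ranged over 0.675 to 0.987, and the SMAD2 difference over -0.31 to 0.16. Without centring, the median of all regions shifted by 0.35 on the log2 scale. Same-numbered libraries correlated at -0.0226 to 0.154 in their deviations from group means. Their median was 0.0548, against -0.0382 for other pairs, and 6 of 8 libraries correlated best with a library of their own number. That is at most a hint of shared numbers, since deviations from a group mean cancel within the group and the correlations are not independent. No label ties the numbers, and not every pair passed 0.1, so they were not read as pairs. With the replicate block 0 regions were called and 371 had an unadjusted p under 0.05. The counts were not tested, with or without pairing. Precision is limited by list length and by 3 libraries a group.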
